A study of Mus musculus with 12 samples.

Results

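The subject is the difference between genotypes in the transcript response of mouse LSK cells to ionizing radiation, that is, the irradiated minus unirradiated response of Cbfb-MYH11 (CM) cells minus the same response of wild-type (WT) cells. LSK cells are bone marrow cells that lack lineage markers and carry Sca1 and c-Kit, the compartment of mouse hematopoietic stem cells and multipotent progenitors. Every library of the study enters the comparison: 12 of 12 libraries from 6 animals, chosen by genotype, treatment and the animal number in the labels. The labels give the WT genotype and call its mice wild-type, though the sample titles say control. CM mice were at the preleukemic stage of disease driven by Cbfb-MYH11, the fusion made by the inversion that defines a subtype of acute myeloid leukemia. Sorted cells received 3.5 Gy outside the animal (IR) or were incubated alike without it (NIR), RNA was taken 24 h later, and the labels give an NIR and an IR library to each animal. Each of the 4 groups (WT NIR, WT IR, CM NIR, CM IR) therefore held 3 libraries, 1 from each of 3 animals. The library names of WT animals 1 and 3 carry the code C, those of WT animal 2 the code WT and those of all CM animals the code CHW; the labels do not explain these codes, so whether the 3 WT animals share 1 genotype in full is not known. The labels do not say which promoter or Cre drove the fusion, how it was induced, or the age of the mice. P values measure the spread between these animals.

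When radiation breaks DNA, the kinases ATM and ATR stabilize the transcription factor p53. p53 then raises genes that halt the cell cycle (Cdkn1a), that favour apoptosis (Bbc3, Bax, Pmaip1), that repair DNA or adjust metabolism, and that switch p53 off again (Mdm2). CBFB is the partner subunit of the RUNX transcription factors of blood formation, and the CM fusion protein interferes with them.

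Total gene counts ranged from 68.5 M to 110.8 M per library. The stem cell sort genes were present in all 12 libraries, with Ly6a (Sca1) at 42.0 to 457 and Kit at 148 to 284 CPM (counts scaled to library size). Of genes that mark other lineages, Cd3e, Ms4a1 and Ly6g of T cells, B cells and neutrophils stayed at or below 0.389 CPM and Klrb1c of natural killer cells at or below 0.423 CPM. Cd8a reached 1.36 CPM and Cd4 1.69 CPM, Il7r of lymphoid cells stood at 3.91 to 38.4 CPM, and the myeloid integrin gene Itgam at 118 to 588 CPM. Library pairs of the same animal resembled each other (correlation of their deviations from the group means 0.41 to 0.84) except in CM animal 3, where it was 0.13. In CM animal 3 the stem cell transcription factor gene Hlf stood at 18.8 CPM without and 60.7 CPM after irradiation, and Mecom at 1.04 and 10.4 CPM. There were 36 genes at 1 CPM or more in every WT library and at most 20% of the WT mean in the 5 CM libraries other than the irradiated one of animal 3, and in that library their median was 40.8% of the WT mean. The same measure in each other CM library found 3 genes, at a median of 1.12% to 5.51%. The irradiated library of CM animal 3 thus stands apart from its own NIR library and from the other CM libraries, and the part of this in each result was not tested. Differences of single genes that moved by over 1.5 times without an animal are given with and without it.

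**Figure D1:**
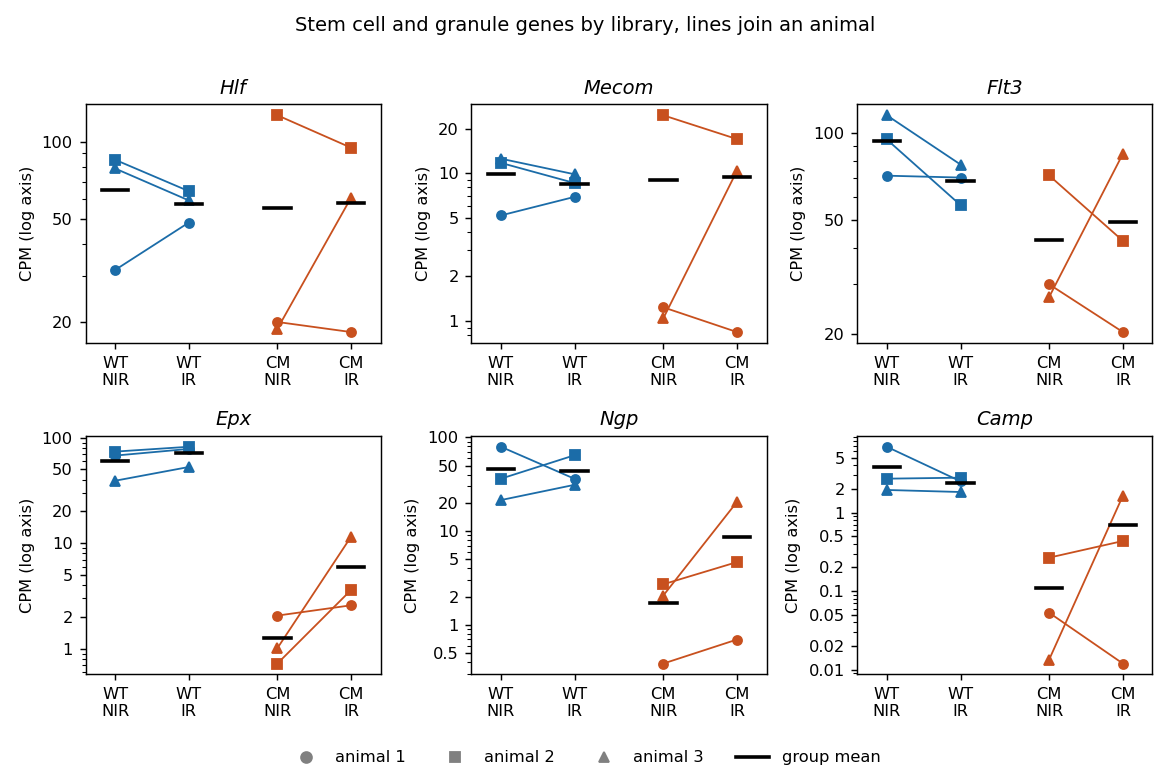
Levels of 3 stem and progenitor genes (Hlf, Mecom, Flt3) and 3 granule protein genes (Epx of eosinophils, Ngp and Camp of neutrophils) in the 12 libraries, in CPM on a log axis; a line joins both libraries from 1 animal and black bars are group means. The IR library of CM animal 3 (orange triangle) lies above its own NIR library in all 6 panels, while CM animals 1 and 2 have nearly level or falling lines for Hlf, Mecom and Flt3.

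No single gene passed the test of the difference of responses. Of 14599 genes tested, edgeR's quasi-likelihood fit with an animal block called 0 with a higher response in CM (0% of genes) and 0 with a lower one (0%) at a Benjamini-Hochberg adjusted p under 5%. At an unadjusted p under 5% the response was higher in CM for 161 genes (1.1%) and lower for 256 (1.75%); with 1 animal left out these counts ran from 108 (without WT animal 3) to 402 (without CM animal 2) and from 115 (without WT animal 3) to 397 (without WT animal 1). Over all genes tested the median difference was 0.01 on the log2 scale, and 6992 genes (47.9%) had a difference below 0. The 3 responses of one genotype lay wholly above those of the other in 974 genes (6.67%), with CM below WT in 520 (3.56%) and CM above WT in 454 (3.11%). limma-voom with the same block also called 0, and DESeq2 with the same block called 1 higher (AF067061) and 3 lower (Cd209a, Cd209e and Fat1). Within the genotypes the same fit called 137 genes higher (0.938%) and 26 lower (0.178%) after irradiation of WT cells, and 0 (0%) after irradiation of CM cells, where 965 genes (6.61%) had an unadjusted p under 5%. Calls in one genotype and not in the other do not show that the responses differ, and the number called higher in WT was 0 without WT animal 2 or 3, 23 without WT animal 1, 91 without CM animal 1, 151 without CM animal 2 and 356 without CM animal 3.

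Among genes with a lower response in CM, a mean of at least 5 CPM in the highest group and no overlap, the smallest p belonged to 2 C-type lectin genes and an atypical cadherin gene, which rose in WT and responded less in all 3 CM animals. Cd209a, a mouse relative of the dendritic cell lectin DC-SIGN (mm10, chr8:3743395-3748984), stood at 5.46, 9.13 and 8.89 CPM in WT NIR animals 1, 2 and 3 and at 31.4, 39.4 and 40.8 CPM after irradiation. In CM it stood at 21, 4.84 and 22.8 CPM without and 32, 9.26 and 31.3 CPM after irradiation. CM animals 1 and 3 thus began above every WT NIR library, while CM animal 2 began below. The response, as log2 CPM of IR minus NIR, was 2.52, 2.11 and 2.2 in WT against 0.60, 0.93 and 0.46 in CM, with no overlap. The fitted difference was -1.61 ± 0.16 (SE) on the log2 scale, with an unadjusted p of 2.79e-05 and an edgeR adjusted p of 0.408, so it did not pass. An exact two-sided permutation test over animals gave p = 0.1, the smallest value that 3 against 3 allows. The choice by no overlap fixed both the gap and this p in advance, so neither is a finding. On the linear scale Cd209a gained 29.4 CPM in WT and 7.98 CPM in CM on average.

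The neighbouring lectin gene Cd209e (chr8:3847973-3854286) showed the same order. It went from 2.45, 1.06 and 2.51 to 12.4, 8.33 and 15.3 CPM in WT animals 1, 2 and 3, and from 1.81, 0.508 and 2.25 to 3.06, 1.26 and 4.46 CPM in CM. Its difference was -1.63 ± 0.23 (edgeR unadjusted p = 2.36e-04, adjusted p = 0.99995). Cd209a and Cd209e are close paralogs, so reads could be split between them and their values are uncertain to that extent. Fat1, an atypical cadherin (chr8:44950208-45052257), went from 0.404, 0.467 and 0.448 to 7.34, 8.02 and 8.56 CPM in WT animals 1, 2 and 3. In CM it went from 0.745, 1.22 and 0.526 to 1.8, 7.44 and 1.45 CPM, so that CM animal 2 reached the WT level and animals 1 and 3 did not. The difference of log2 responses was -2.35 ± 0.38 (edgeR unadjusted p = 4.95e-04, adjusted p = 0.99995), and -2.14 without CM animal 3. DESeq2 gave adjusted p of 3.08e-12 for Cd209a, 9.10e-05 for Cd209e and 3.32e-04 for Fat1, with nearly the same differences (-1.62, -1.65 and -2.37). edgeR and limma-voom left all 3 above the threshold (limma-voom adjusted p 0.199 for Cd209a, 0.878 for Cd209e and 0.9997 for Fat1).

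**Figure D2:**
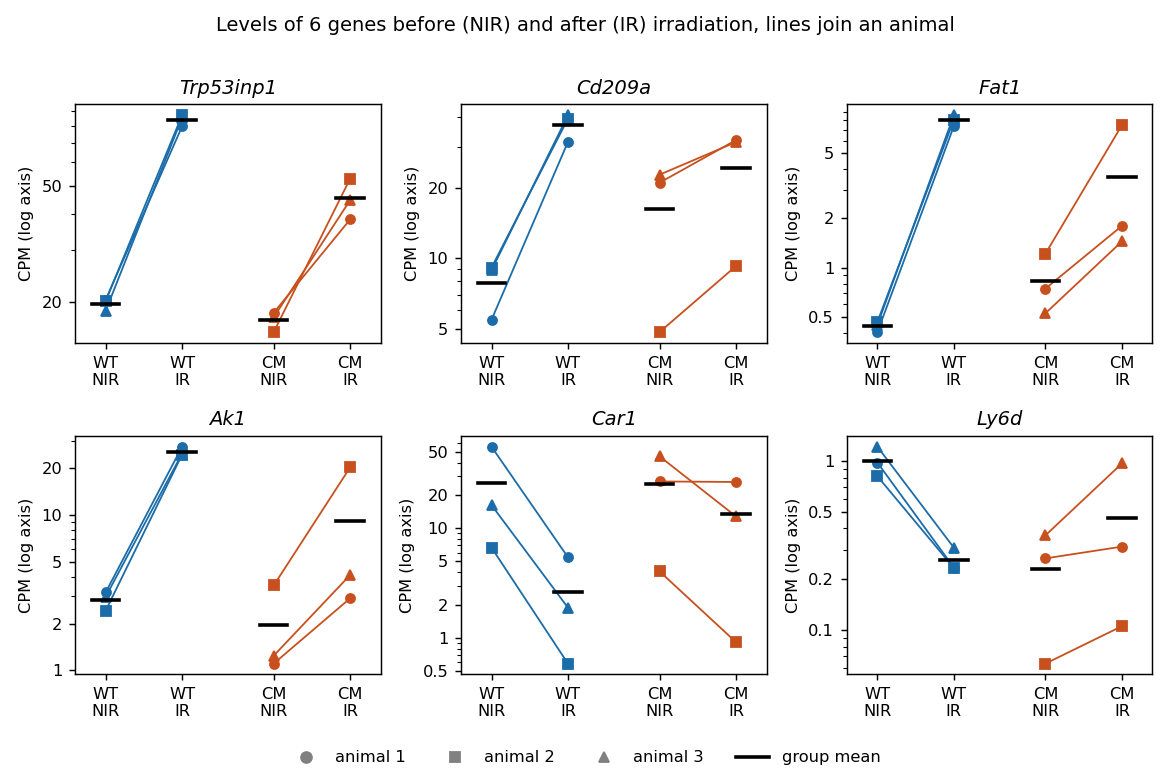
Levels in the 12 libraries of 3 genes that p53 raises or that are counted with its targets (Trp53inp1, Fat1, Ak1), the lectin gene Cd209a, the erythroid gene Car1 and the lymphoid progenitor gene Ly6d, in CPM on a log axis; lines join both libraries from 1 animal and black bars are group means. WT lines are close to parallel in each panel, CM lines are flatter for the first 4 genes, and for Ly6d the lines slope down in all 3 WT animals and up in all 3 CM animals.

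By the same rule, a further 6 are Fam53b, Cited2, Fmnl2, Micall2, Cdc42bpg and Atxn1. Their differences ran from -0.61 (Cdc42bpg) to -0.39 (Cited2). Cited2, a transcriptional co-regulator needed by hematopoietic stem cells, stood at 140, 122 and 135 CPM before and 171, 136 and 176 CPM after irradiation in WT. In CM it stood at 184, 179 and 184 CPM before and 174, 165 and 166 CPM after, so the change was positive in all 3 WT animals and negative in all 3 CM animals. The difference was -0.39 ± 0.07 (edgeR unadjusted p = 0.00136). Fmnl2, a formin that assembles actin, gained 29.4 CPM in WT on average (log2 response 0.47 ± 0.07, edgeR adjusted p = 0.0343), against -0.01 ± 0.07 in CM. Fam53b, Micall2, Cdc42bpg and Atxn1 had WT responses of 0.54 to 0.87 that passed (edgeR adjusted p 0.016 to 0.0196) and CM responses of 0.10 to 0.25 that did not. None of these 6 differences passed on adjustment (edgeR adjusted p = 0.99995 each).

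**Figure D3:**
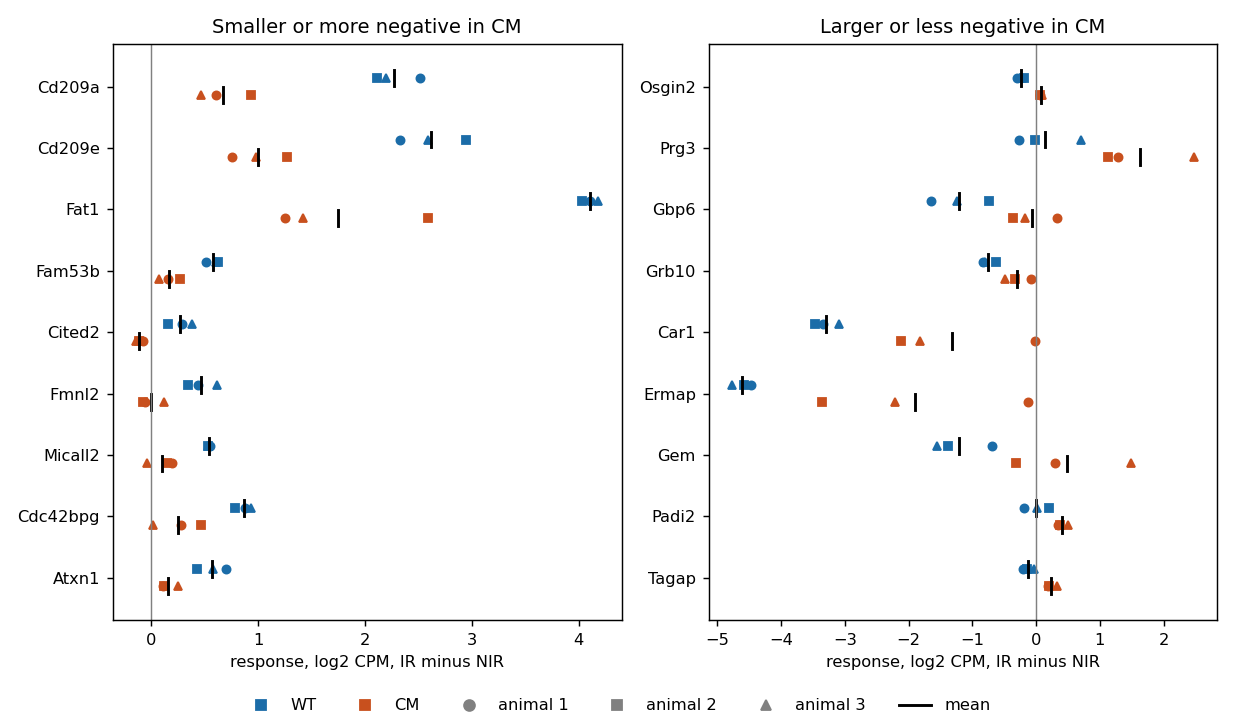
Response to irradiation of each animal (log2 CPM, IR minus NIR; blue WT, orange CM, black bars the mean of 3 animals) for 9 genes of smallest p in each direction of the difference. The rule that chose them asked for a small p and no overlap between genotypes. Neither the gap in each row nor the spread within a genotype is therefore a finding. For Ermap the responses ran from -0.12 to -3.36 in CM and from -4.48 to -4.78 in WT.

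Most of the p53 pathway genes tested had a smaller response in CM than in WT. In WT 34 were called higher after irradiation (beside 0.938% of all genes). In CM 0 were called, but so were 0% of all genes, so the 0 says nothing of these genes. Of 103 symbols in 5 lists (3 of them older symbols of genes listed under current names), 94 were tested; the other 6 genes had too few counts. The median log2 response of the 94 was 0.42 in WT and 0.24 in CM, with a median difference of -0.22 beside 0.01 over all genes tested. The response was smaller or more negative in CM for 77 of 94 (81.9%, beside 47.9% of all genes). At an unadjusted p under 5%, 28 were lower in CM (beside 1.75% of all genes) and 1 was higher (Prkab2); 0 passed after adjustment. In 22 members the 3 CM responses lay below the 3 WT responses (beside 3.56%), and in 1 above. A smaller response in CM was not particular to these lists. The antioxidant (NRF2) list had 16 of 18 genes lower in CM (88.9%), with a median difference of -0.07. The BCL2 family list had 9 of 11 lower (81.8%), with a median difference of -0.08. Other lists went the other way, such as replication with 9 of 44 lower (20.5%). Of the 207 genes of any kind called higher in the average response of the 2 genotypes, 184 were nearer 0 in CM. The median response of the 207 was 0.87 in WT and 0.56 in CM. Of the 95 genes called lower, 86 were nearer 0 in CM. The p53 lists held 40 of the 207 and 0 of the 95. The order of response sizes among the 94 genes was much the same in both genotypes, as a description across genes (Pearson's r = 0.95, where all genes tested gave 0.45). Per animal the list median came to 0.33, 0.42 and 0.46 for WT 1, 2 and 3 and 0.16, 0.33 and 0.20 for CM 1, 2 and 3, so CM animal 2 nearly equalled the lowest WT animal. The median difference was -0.17 without CM animal 3 and between -0.27 and -0.19 with any other single animal left out. The set was chosen with earlier results of these data known, and its direction is no independent evidence.

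**Figure D4:**
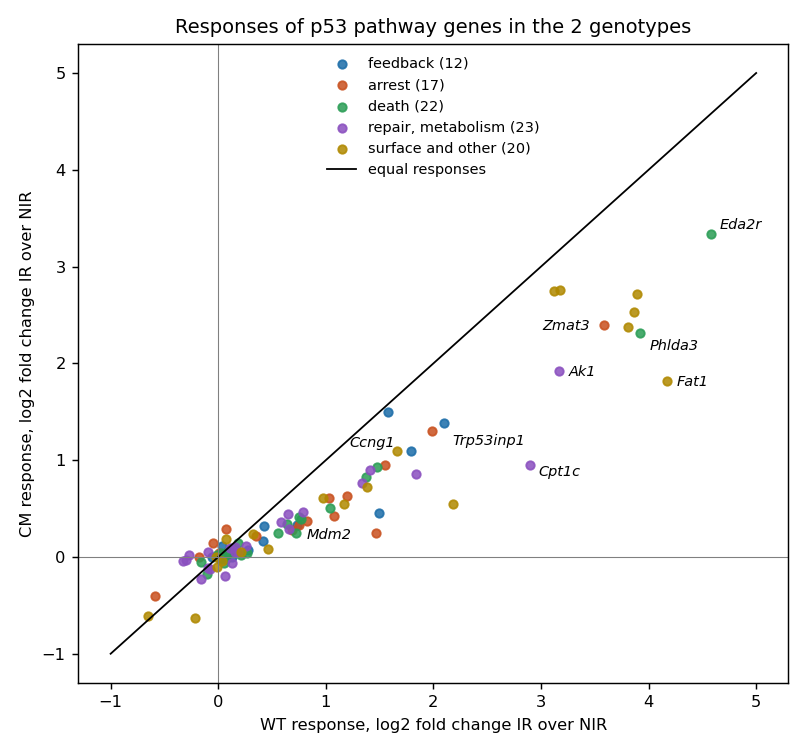
Fitted log2 response of the 94 tested p53 pathway genes in WT (horizontal) and CM (vertical), coloured by role, with the line of equal responses. Genes with large WT responses such as Eda2r (4.58 in WT, 3.33 in CM), Fat1 (4.17, 1.82) and Cpt1c (2.89, 0.95) lie below the line, and genes near 0 in WT lie near it.

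The feedback genes had a median difference of -0.16 over 12 tested members. Of these, 10 were lower in CM and 5 at an unadjusted p under 5% (beside 47.9% and 1.75% of all genes). Some p53 members without overlap, named here and below, were picked after their values were seen. Over all genes, CM lay below WT without overlap in 3.56%. Trp53inp1, a p53 target that promotes arrest and death (chr4:11156441-11174379), stood at 20.3, 20.1 and 18.6 CPM in WT NIR and 79.7, 87.1 and 85.5 CPM in WT IR. In CM it stood at 18.3, 15.7 and 17.7 CPM before and 38.3, 52.8 and 44.5 CPM after irradiation. The starting levels were alike and the irradiated levels did not overlap. Its difference was -0.72 ± 0.17 (edgeR unadjusted p = 0.0046, adjusted p = 0.99995). Mdm2, the ubiquitin ligase that degrades p53, had log2 responses of 0.63, 0.71 and 0.86 in WT and 0.21, 0.60 and 0.19 in CM, a difference of -0.40 ± 0.13. Pvt1, a long noncoding RNA gene that p53 also raises, had 1.55, 1.43 and 1.5 in WT and 0.35, 1.21 and -0.18 in CM. Ccng1, cyclin G1, had 1.63, 1.93 and 1.83 in WT; CM animal 2 at 1.82 lay among them, and CM animals 1 and 3 stood at 0.66 and 0.83 (difference -0.69, and -1.05 without CM animal 2). Trp53 itself had fitted responses of 0.04 in WT and 0.05 in CM, and the sign of their difference of 0.01 ± 0.08 turned to -0.05 without CM animal 3 and to -0.01 without WT animal 3.

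The arrest genes had a median response of 0.75 in WT and 0.28 in CM over 17 members (median difference -0.42). Of the 17, 12 were lower in CM and 5 at an unadjusted p under 5% (beside 47.9% and 1.75% of all genes). Cdkn1a, the p21 inhibitor of cyclin-dependent kinases (chr17:29090979-29100722), stood at 243, 144 and 144 CPM in WT NIR, 447, 370 and 363 CPM in WT IR, 297, 160 and 281 CPM in CM NIR and 428, 379 and 303 CPM in CM IR. Both genotypes ended in an overlapping range, and the CM NIR levels of animals 1 and 3 were the highest before irradiation. Its responses of 0.88, 1.37 and 1.33 in WT and 0.53, 1.24 and 0.11 in CM overlapped (difference -0.57 ± 0.29, edgeR unadjusted p = 0.0911, exact permutation p = 0.2), and the difference was -0.30 without CM animal 3 and -0.87 without CM animal 2. Zmat3, an RNA-binding p53 target, went from 12.3, 10.8 and 13.7 to 136, 148 and 157 CPM in WT, and from 9.33, 10.9 and 8.38 to 28.3, 123 and 35.8 CPM in CM. CM animal 2 was close to WT for this gene and animals 1 and 3 far below, and the difference of -1.18 was -0.78 without CM animal 1. The antiproliferative genes Tob1 and Btg2 and the mTORC1 inhibitor gene Sesn2 did not overlap between genotypes, with differences of -0.46, -0.42 and -0.41.

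Among 22 death genes, 19 had a lower response in CM and 6 of them an unadjusted p under 5% (beside 47.9% and 1.75% of all genes). The median difference of the list was -0.21, and -0.12 without CM animal 3. The genes of the mitochondrial pathway overlapped between genotypes. Bbc3 (PUMA) had responses of 1, 1.5 and 1.62 in WT and 0.58, 1.43 and 0.44 in CM (difference -0.55 ± 0.30, -0.35 without CM animal 3 and -0.86 without CM animal 2). Bax had 0.74, 1.24 and 1.14 against 0.34 and 1.18 in CM animals 1 and 2 and no response in animal 3 (difference -0.53 ± 0.30, -0.27 without CM animal 3 and -0.87 without CM animal 2). Pmaip1 (NOXA) had 0.39, 0.24 and 0.17 against -0.16, 0.27 and 0.02 (difference -0.22, -0.13 without CM animal 1 and -0.34 without CM animal 2). Other death genes did not overlap: Tnfrsf10b, the mouse TRAIL receptor, had 1.65, 1.38 and 1.40 in WT and 0.60, 1.25 and 0.93 in CM (difference -0.54 ± 0.18), and the nuclease gene Aen 0.79, 0.80 and 0.72 against 0.16, 0.63 and 0.39. Ei24 and Pidd1 also did not overlap (differences -0.31 and -0.35). Eda2r, the death-domain receptor of ectodysplasin A2, went from 1.33, 0.782 and 1.08 to 22.5, 25.4 and 26.8 CPM in WT. In CM it went from 0.585, 1 and 0.337 to 2.74, 17.8 and 3.64 CPM, and its difference of -1.24 was -0.72 without CM animal 1. Phlda3, which restrains AKT, ended at 31.4, 25.7 and 25.7 CPM in WT and at 8.61, 31.9 and 7.49 CPM in CM, so CM animal 2 exceeded every WT animal there.

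Of 23 repair and metabolism genes, 19 responded less in CM and 6 of them at an unadjusted p under 5% (beside 47.9% and 1.75% of all genes). The median difference of the list was -0.15, and -0.07 without CM animal 3. The gene with the smallest p was Ak1, adenylate kinase 1 (chr2:32621758-32635058), at 3.17, 2.42 and 2.97 CPM before and 27.5, 24.4 and 24.8 CPM after irradiation of WT. In CM it went from 1.1, 3.52 and 1.24 to 2.91, 20.3 and 4.1 CPM, and the difference was -1.25 ± 0.29 (edgeR unadjusted p = 0.00365). Cpt1c, of the carnitine palmitoyltransferase family, differed by -1.95 ± 0.49, the epoxide hydrolase gene Ephx1 by -0.99 ± 0.26 and the translesion polymerase gene Polk by -0.38 ± 0.13, none with overlap. Mgmt, which removes alkyl groups from DNA and is in none of the 5 lists, overlapped between genotypes (2.02 in WT and 1.6 in CM; difference -0.42, -0.23 without CM animal 1 and -0.73 without CM animal 2). In the list of surface proteins and other targets, 17 of 20 responded less in CM (beside 47.9% of all genes). The list median was 1.07 in WT and 0.55 in CM. Its median difference was -0.40, with -0.24 without CM animal 3 and -0.61 without CM animal 2. Besides Fat1, the phosphatase gene Ptp4a3 (difference -0.66 ± 0.17), Kank3 (-0.37 ± 0.12) and, by a narrow margin, Zfp365 (-1.34 ± 0.49, and -0.84 without CM animal 1) did not overlap between genotypes.

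Among the p53 genes raised by irradiation, the size of the response differed more among the CM animals than among the WT animals. Other lists went either way. The list median had a standard deviation among animals of 0.15 in WT and 0.42 in CM for stem cell genes. For erythroid genes it was 1.20 in WT and 0.73 in CM. Of the 94 p53 genes, 40 passed in the average response of the 2 genotypes (where 1.42% of all genes were called higher), a choice that uses all 12 libraries; the count over all genes, 207, was 4 without WT animal 2 or 3 and 330 without CM animal 3. The median response of these 40 was 1.31, 1.37 and 1.37 in WT animals 1, 2 and 3 and 0.46, 1.23 and 0.55 in CM animals 1, 2 and 3. Set against the mean WT response on the log2 scale, the CM response had a median of 40% in animal 1, 88.4% in animal 2 and 42.6% in animal 3. The response lay below all 3 WT animals for 39 of the 40 genes in CM animal 1, 22 in CM animal 2 and 37 in CM animal 3. The NIR group means of the 40 differed little between genotypes (median log2 ratio of CM to WT -0.08, 26 lower and 14 higher in CM). The irradiated group means were lower in CM for all 40 (median -0.63), which does not speak for each CM animal. Stem and progenitor markers also differed among the CM animals. Hlf stood at 20 and 18.2 CPM (NIR and IR) in CM animal 1, 126.6 and 94.7 CPM in animal 2 and 18.8 and 60.7 CPM in animal 3, against 31.7 to 85.1 CPM in WT. Ly6a had the opposite order, at 306 and 323 CPM in CM animal 1, 46.7 and 49.7 CPM in animal 2 and 457 and 144 CPM in animal 3. Flt3 was highest after irradiation in CM animal 3 (84.8 CPM, against 20.3 and 42.2 CPM in animals 1 and 2). Their part in the responses was not tested. In bulk RNA, fewer cells of a responding type and less RNA per cell cannot be told apart. By their numbers the libraries form series A (WT animal 1, CM animals 1 and 2) and series B (WT animals 2 and 3, CM animal 3), and in each series every CM animal had a median at or below that of each WT animal of its series for these 40 genes. A term for the series left the median difference over the 94 genes at -0.22.

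A match to the p53 consensus site shows which of these genes carry a candidate site close to their start. RefSeq promoter windows of build GRCm38.p6, from 250 bases before to 50 after each start, were searched for 20 bases made of 2 abutting decamers of the p53 consensus, allowing 2 mismatches with the core C and G of each decamer fixed. The site is its own reverse complement in form, so both strands were covered. Of all 32851 windows 0.326% held a match, and 6 of 102 windows of tested p53 genes (5.88%) did. None of the 7 genes with a window among the 10 of smallest p with a lower response in CM did, which says only that these letters are not in those windows. Shown with 10 bases on each side are the matches of 4 p53 genes whose responses were compared above or are given next, with the matched 20 bases in capitals, in the direction of transcription; a gene can have several RefSeq starts, and for Cdkn1a the match precedes an alternative one. Ccng1 lies at chr11:40755452-40755491 on the minus strand, Cdkn1a at chr17:29090918-29090957 on the plus strand, Rps27l at chr9:66946286-66946325 on the plus strand and Zfp365 at chr10:67912696-67912735 on the minus strand.
Ccng1: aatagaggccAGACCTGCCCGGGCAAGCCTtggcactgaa
Cdkn1a: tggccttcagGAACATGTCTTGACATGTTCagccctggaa
Rps27l: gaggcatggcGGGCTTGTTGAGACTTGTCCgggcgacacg
Zfp365: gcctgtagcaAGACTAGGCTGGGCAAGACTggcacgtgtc
The first 3 hold 1 mismatch and the last 2. The responses of the 4 genes differed widely in size. Rps27l, a p53-induced relative of a ribosomal protein gene, had 0.65, 0.73 and 0.56 in WT and 0.27, 0.85 and 0.22 in CM (difference -0.20 ± 0.17, -0.074 without CM animal 3, -0.12 without CM animal 1 and -0.40 without CM animal 2), while Zfp365 had 3.52, 3.99 and 4.01 against 1.52, 3.52 and 2.29. A match is a description of the window and not of binding.

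Genes of DNA damage signalling, repair, replication and mitosis differed little between the genotypes in the size of their median response. The response was higher in CM for 35 of 44 replication, 22 of 33 recombination and Fanconi anemia and 16 of 22 damage signalling genes. It was higher for 7 of 12 end joining and 16 of 43 mitosis genes (beside 7607 of 14599 genes tested). CM lay above WT without overlap in 4 replication, 3 recombination, 1 end joining and 1 mitosis gene (beside 3.11% of all genes). It lay below in 2 mitosis genes (beside 3.56%). The median difference was 0.04 for 22 damage signalling genes (-0.04 without CM animal 3), 0.01 for 12 end joining genes (-0.03 without WT animal 1), 0.03 for 33 recombination and Fanconi anemia genes (-0.0039 without CM animal 3) and 0.04 for 44 replication genes, with 1 gene at an unadjusted p under 5% among them all (beside 2.86% of all genes). That gene was Prim2, the large primase subunit, with responses of -0.09, -0.16 and -0.13 in WT and no more than 0.07 in size in CM (difference 0.15 ± 0.06). The 43 mitosis genes had medians of -0.11 in WT and -0.12 in CM, and the list median was between -0.16 and -0.10 in each of the 6 animals. None of the 43 had an unadjusted p under 5% in the difference, while 7 passed as lower in the average response (Mki67, Top2a, Kif11, Kif4, Cenpe, Anln and Ndc80; edgeR adjusted p 0.0234 to 0.0479, beside 0.651% of all genes; the 95 genes so called over all genes were 0 without WT animal 2 or 3). Anln, the cytokinesis scaffold anillin, had fitted responses of -0.22 in WT and -0.25 in CM. Ndc80, a kinetochore subunit, had -0.31, -0.28 and -0.33 in WT and -0.11, -0.18 and -0.25 in CM (difference 0.12, and 0.082 without CM animal 1).

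**Figure D5:**
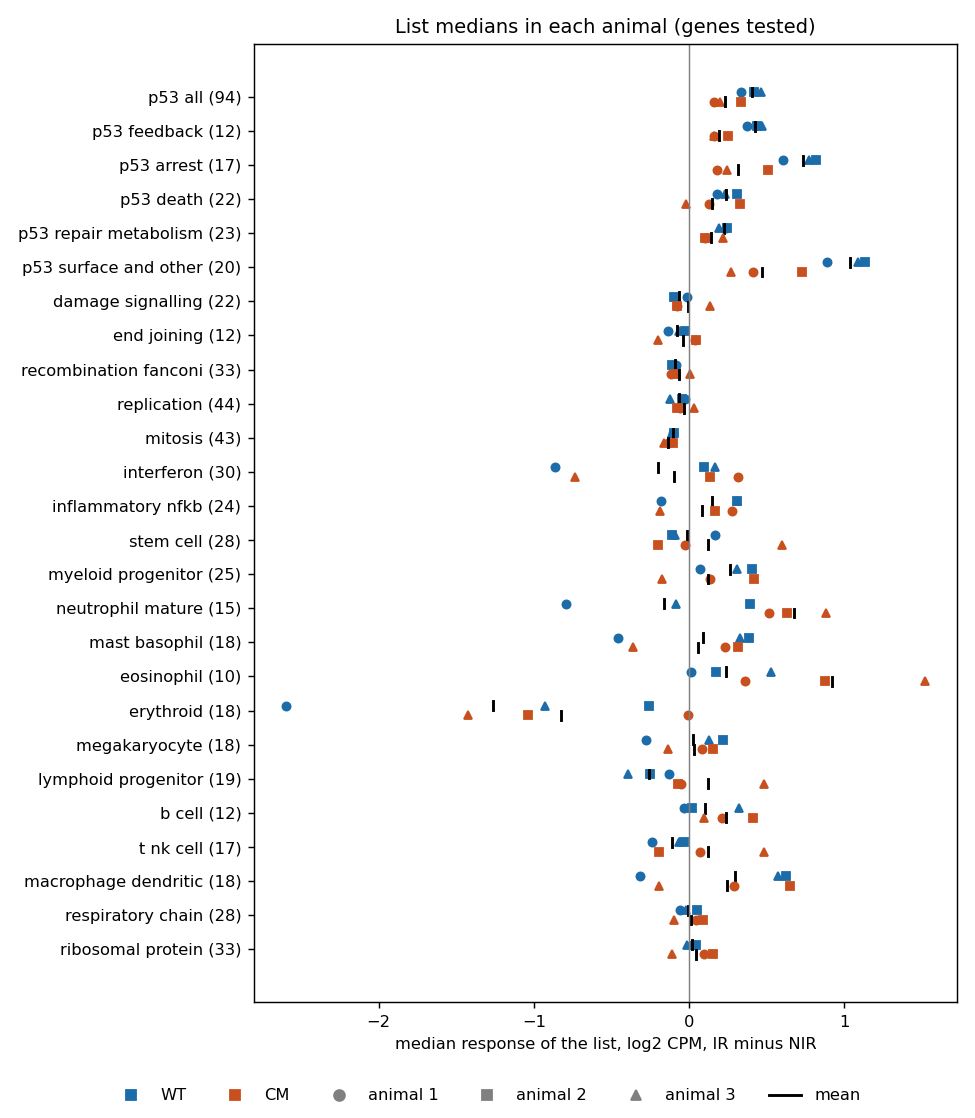
Median response of each gene list in each animal (log2 CPM, IR minus NIR; blue WT, orange CM, shapes the 3 animals, black bars the mean of 3 animals), with the number of genes tested in brackets. The p53 lists lie to the right of 0 in WT, the mitosis list is narrow and alike in both genotypes, and the interferon, erythroid and stem cell lists spread widely among animals of 1 genotype.

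Erythroid genes varied widely among animals of both genotypes. Over 18 tested members (6 hemoglobin genes of the list had 0 counts in every library) the median response per animal was -2.60, -0.26 and -0.93 in WT and -0.01, -1.04 and -1.43 in CM, so the animals of the genotypes overlapped. In the fit, 4 of the 18 were called lower in WT (beside 0.178% of all genes) and 0 in CM (beside 0% of all genes). The fitted response was less negative in CM for 16 of 18, where 7607 of all 14599 genes tested were higher in CM. Of these 16, 6 had an unadjusted p under 5% (beside 1.1% of all genes). Car1, carbonic anhydrase 1 (chr3:14766214-14808365), went from 55.7, 6.68 and 16.3 to 5.46, 0.584 and 1.89 CPM in WT animals 1, 2 and 3, and from 26.9, 4.05 and 45.5 to 26.6, 0.915 and 12.9 CPM in CM. Its WT response of -3.31 ± 0.40 passed (edgeR adjusted p = 0.0201), its CM response of -1.26 ± 0.39 did not, and the difference was 2.05 ± 0.55 (unadjusted p = 0.00767). Ermap, an erythroblast membrane protein, had responses of -4.48, -4.58 and -4.78 in WT and -0.12, -3.36 and -2.22 in CM. Ank1, ankyrin of the red cell membrane, also did not overlap (-2.55 in WT, -1.13 in CM), and its difference of 1.42 was 0.81 without CM animal 1. The median difference of the list, 0.97, was 0.14 without WT animal 1 and 0.34 without CM animal 1, and that of Car1 was 1.34 without CM animal 1. The part of erythroid cell content in these values was not tested.

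Of 19 tested early lymphoid genes, 14 had a higher response in CM (beside 7607 of 14599 genes tested). At an unadjusted p under 5%, 5 of the 14 were higher and 1 of the others lower (beside 1.1% and 1.75% of all genes). The median difference was 0.54, with 0.14 without CM animal 3 and 0.89 without CM animal 1. Ly6d, which marks the step towards B cells (chr15:74762056-74763567), went from 0.98, 0.814 and 1.22 to 0.235, 0.234 and 0.308 CPM in WT, and from 0.266, 0.0635 and 0.364 to 0.312, 0.106 and 0.969 CPM in CM. Ly6d was lower after irradiation in all 3 WT animals and higher in all 3 CM animals, whose NIR levels lay below those of WT. The CM levels in animals 1 and 2 rest on few reads, so the direction there is within counting error. The difference was 2.79 ± 0.40 (edgeR unadjusted p = 2.48e-04, adjusted p = 0.99995), and 2.33 without CM animal 3. Ccr9, a homing receptor of early T lineage cells, had responses of -3.01, -3.07 and -1.72 in WT and 0.01, -0.47 and -1.11 in CM. Its levels were low, so the sizes of these responses are uncertain. In RPKM (counts scaled to library size and gene length) the NIR and IR means were 0.42 and 0.066 in WT. In CM they were 0.24 and 0.14. Blnk, the B cell linker, had -0.40, -0.60 and -0.55 in WT and 0.17, 0.85 and 0.16 in CM, at 0.394 to 2.22 CPM. Dntt, terminal transferase, overlapped between genotypes, and its difference of 2.79 was 1.78 without CM animal 3. Klrd1, a natural killer cell receptor, had a difference of 1.24 ± 0.36. Gzma, granzyme A, had 0 counts in all 3 CM NIR libraries and 0, 0.0352 and 0.658 CPM in CM IR, against 0.548, 0.467 and 1.15 CPM in WT NIR, so no fold is given.

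Several eosinophil granule genes were low in CM before irradiation and had larger log2 responses there, while gains in CPM were in part smaller. Of 10 tested eosinophil genes, 5 had a higher response in CM at an unadjusted p under 5% (Prg3, Ear1, Ear2, Epx and Prg2, beside 1.1% of all genes), and the list median per animal was 0.01, 0.17 and 0.53 in WT and 0.36, 0.87 and 1.52 in CM. The median fitted difference of 1.64 was 0.82 without CM animal 3. The summed level of the list was 93.5 to 196 CPM in WT libraries and 9.30 to 41.9 CPM in CM libraries. Epx, eosinophil peroxidase, stood at 67.7, 73.8 and 39.1 CPM in WT NIR and 78.3, 82 and 52.8 CPM in WT IR, and at 2.06, 0.724 and 1.01 CPM in CM NIR and 2.58, 3.61 and 11.6 CPM in CM IR. Its difference was 1.76 ± 0.67 on the log2 scale but -6.19 CPM on the linear scale (10.8 CPM gained in WT, 4.66 in CM), and on the log2 scale 0.95 without CM animal 3 and 2.71 without CM animal 1. Prg2, the major basic protein gene, had the same 2 signs (1.6 on the log2 scale and -3.39 CPM on the linear one), with 0.89 on the log2 scale without CM animal 3 and 2.43 without CM animal 1. Prg3 and Ear1 were higher in CM on both scales, and their CM responses lay above those of WT in all 3 animals (1.28, 1.13 and 2.48 against -0.27, -0.02 and 0.71 for Prg3, whose difference of 1.80 was 1.25 without CM animal 3). Ear1 and Ear2 are near-identical copies whose reads could be split, and Ear2 had 0 counts in all 3 CM NIR libraries and at most 0.0838 CPM in CM IR; its gain was smaller in CM by -0.049 CPM, opposite in sign to its fitted log2 difference. Mature neutrophil genes did not share 1 starting level: S100a8 was lower in CM NIR than in WT NIR, and Lcn2 (195, 62.8 and 225 CPM in CM against 43.9, 31.8 and 25 CPM in WT) was higher. The summed level of the list before irradiation was 1040, 234 and 2022 CPM in CM and 747, 434 and 321 CPM in WT. S100a8, a calcium-binding neutrophil protein, had responses of -1.11, 0.52 and -0.15 in WT and 0.53, 1.02 and 2 in CM (difference 1.46 ± 0.52). AF067061, a gene at no more than 0.0135 CPM in every CM NIR library, which DESeq2 called (adjusted p = 0.0473), had 5.17 ± 1.04 in edgeR on the log2 scale, -0.58 CPM on the linear scale and 0.67 without CM animal 3.

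The genes of smallest p with a higher response in CM held Prg3, Car1 and Ermap from the lists above and Osgin2, Gbp6, Grb10, Gem, Padi2 and Tagap. Grb10, an adaptor that dampens insulin and growth factor receptor signals, was lower after irradiation in all 6 animals, with responses of -0.83, -0.63 and -0.80 in WT (adjusted p = 0.0184 for the fitted WT response, edgeR) and -0.08, -0.33 and -0.48 in CM. In CPM its loss was alike, 22.7 in WT and 19.7 in CM, from CM NIR levels of 71, 158 and 79.2 against 52.5, 60.7 and 55.2 CPM in WT. Gem, a small GTPase, had -0.69, -1.39 and -1.56 in WT and 0.30, -0.32 and 1.49 in CM. Osgin2 and Tagap, a GTPase-activating protein of T cells, had negative responses in all 3 WT and positive ones in all 3 CM animals, with differences of 0.31 and 0.36. Padi2, which converts arginine to citrulline in proteins, had 0.34, 0.38 and 0.50 in CM against -0.20, 0.20 and 0.01 in WT. Gbp6, an interferon-inducible GTPase, had a difference of 1.16 ± 0.29. The interferon list as a whole had 0 of 30 genes at an unadjusted p under 5% in the difference, and its median ran from -0.86 to 0.31 among the 6 animals. The interleukin 21 receptor gene Il21r stood at 32.4, 21 and 22.7 CPM before and 48.1, 36.4 and 34.7 CPM after irradiation in WT, and at 7.54, 6.77 and 8.72 and then 13.5, 15.1 and 18.6 CPM in CM. Its response was 0.66 ± 0.08 in WT (edgeR adjusted p = 0.0203) and 1.03 ± 0.08 in CM (edgeR adjusted p = 0.0997), a difference of 0.37 ± 0.12 on the log2 scale but -6.29 CPM on the linear scale.

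Of 25 myeloid progenitor genes, 17 had a lower response in CM (beside 47.9% of all genes). The list median was 0.26 in WT and 0.08 in CM, and the median difference of -0.13 became 0.08 without CM animal 3. Hk3, the hexokinase of myeloid cells, had 0.51, 0.74 and 0.91 in WT and 0.13, 0.51 and 0.03 in CM (difference -0.49 ± 0.15), with a WT response that passed (edgeR adjusted p = 0.0385). Mpo, myeloperoxidase, had 0.58, 0.61 and 0.46 in WT and 0.08, 0.49 and 0.36 in CM (-0.24 ± 0.12, and -0.13 without CM animal 1). Irf8, which directs progenitors to the monocyte and dendritic lineage, moved the other way, with -0.38, -0.49 and -0.77 in WT and -0.06, -0.18 and -0.39 in CM (difference 0.34, and 0.22 without WT animal 3). Of 24 inflammatory and NF-kB genes 2 had a lower response in CM at an unadjusted p under 5% (beside 1.75% of all genes), Icam1 (difference -0.38 ± 0.16, and -0.20 without CM animal 3) and Rel (-0.28 ± 0.12, and -0.19 without WT animal 3), and the list median of -0.08 was 0.06 without CM animal 3. Markers of stem cells (median difference 0.05, and -0.13 without CM animal 3), mature neutrophils (0.42, and 0.08 without WT animal 1), B cells (0.11, and 0.02 without CM animal 3), T and NK cells (0.16, and 0.06 without WT animal 1), megakaryocytes (0.09, and -0.10 without WT animal 1), mast cells and basophils (-0.02, and 0.18 without CM animal 3), macrophages and dendritic cells (0.04, and -0.31 without WT animal 1), the respiratory chain (0.02, and -0.014 without CM animal 2) and ribosomal proteins (0.03, and -0.025 without CM animal 2) completed the lists that were measured in every animal.

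Of 6 tested genes in the core binding factor list, of which the fusion alters Cbfb, 4 had a lower response in CM and 2 a higher one. Over all genes 47.9% were lower. Of the 4, 2 had an unadjusted p under 5% (beside 1.75% of all genes). The median difference was -0.10 and the mean difference 0.0012. Unlike Runx1 and Cbfb, Runx3 fell in WT and rose in CM on group means, from 30.0 to 27.7 RPKM and from 10.5 to 13.8 RPKM. Runx1, the DNA-binding subunit (chr16:92601466-92826074), stood at 200, 217 and 220 CPM in WT NIR and 238, 227 and 251 CPM in WT IR. In CM it stood at 282, 278 and 270 CPM before and 269, 254 and 258 CPM after irradiation. The response was positive in all 3 WT animals and negative in all 3 CM animals (0.25, 0.06 and 0.19 against -0.07, -0.13 and -0.07), a difference of -0.26 ± 0.07 (edgeR unadjusted p = 0.00825, adjusted p = 0.99995). Cbfb (chr8:105170674-105217988) had responses of 0.07, -0.04 and -0.12 in WT and -0.23, -0.21 and -0.16 in CM, a difference of -0.17 ± 0.07. Its counts join the normal transcript with the part of the fusion transcript that comes from Cbfb, and are thus no test of genotype. Myh11, the smooth muscle myosin gene, lay between 0.0977 and 0.519 CPM in all libraries, where counting error is large, and the sign of its difference of -0.03 ± 0.51 turned when single animals were left out.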

How the data were processed

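RNA of 12 libraries was analysed from 2 deposited gene tables, counts and RPKM. Per the labels' protocols, stranded libraries were made after ribosomal RNA removal. The submitters' processing notes name bcl2fastq 2.18.0.12, TopHat2, HTSeq 0.6.1p1 and mm10; tool roles, strand setting and annotation release: not given in the sources used here, so genes overlapping on opposite strands are uncertain. Main results use the deposited counts (25078 genes, 4353 with 0 counts throughout); the authors' RPKM entered 1 alternative, as log2(RPKM + 0.1) with limma.

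Genes passing filterByExpr (minimum count 10, minimum total 15) numbered 14599. edgeR 4.0.16 (R 4.3.3) fitted TMM-scaled counts with the animal as block and an irradiation term per genotype (residual degrees of freedom 4, biological coefficient of variation 0.128), with the quasi-likelihood test and Benjamini-Hochberg adjustment over all genes tested, threshold 0.05. The pairing comes from animal numbers in the labels: paired libraries' deviations from group means correlated at 0.67, 0.50 and 0.41 in WT pairs and 0.79, 0.84 and 0.13 in CM pairs. Per-animal responses are log2 CPM with a prior count of 2, and CPM are TMM-scaled. No replicate pair was the same within counting error (ratio of chi-square to degrees of freedom 14.1 or more).

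DESeq2 1.42.0 and limma-voom 3.58.1, RLE factors, other filters, no block, a library series term, linear CPM gains and leaving out each animal were alternatives. The test was checked on simulated counts. Named genes were 13 fixed genes, the 10 of smallest p per direction of the difference (at least 5 CPM, no overlap), and up to 3 of smallest p per list. The 10 of smallest p in the average response were also eligible, among them Il21r and Mgmt. Some were named after their values were seen (the p53 members without overlap, AF067061). Further genes were named outside these rules, among them Epx, Prg2, Ank1, Dntt, Mpo, Lcn2 and Anln. Genes, 31 lists and tests were chosen with earlier results of these data known. The other lists (BCL2 family, immediate early, stress response, NRF2, endothelial and stromal, core binding factor) are given only by counts or single genes, or not described further. Counting error is small above 1 CPM at this depth. Some items are not reported here.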

Additional observations from a re-analysis of the deposited data

Results flagged for a closer look

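For 4 genes a test called the 2 genotypes' responses different in DESeq2 with the animal block, though not in edgeR or limma-voom. The edgeR and DESeq2 differences of log2 responses were -1.61 and -1.62 for Cd209a and -1.63 and -1.65 for Cd209e. They were -2.35 and -2.37 for Fat1 and 5.17 and 4.34 for AF067061. The edgeR value of AF067061 was 0.67 without CM animal 3. Its responses overlapped between genotypes (1.33, -0.62 and 5.68 in CM against 0.60, 0.68 and 0.48 in WT). The edgeR values of the other 3 genes lay between -2.81 and -1.47 with any 1 animal left out.

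In 6 further genes every WT animal moved one way and every CM animal the opposite way: Cited2 (difference -0.39), Runx1 (-0.26), Osgin2 (0.31), Tagap (0.36), Blnk (0.90) and Ly6d (2.79). In these the opposite directions were not tested as such, and the differences did not pass on adjustment. For Ly6d the CM direction rests on few reads in animals 1 and 2 (0.266 to 0.312 and 0.0635 to 0.106 CPM). Over all genes tested, 65 had 3 positive WT and 3 negative CM responses and 70 the reverse.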

How the results depend on the processing

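Across the alternatives, 1073 of 1085 values of single genes named here kept their direction, and 12 turned. On the linear CPM scale the difference turned for Il21r (-6.29), Epx (-6.19), Prg2 (-3.39), Ear2 (-0.049) and AF067061 (-0.58). With single animals left out, the difference ran from -0.050 to 0.055 for Trp53 and from -0.45 to 0.34 for Myh11, crossing 0, and Myh11 was at 0.053 with a library series term.

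Without the replicate block, which ignores the pairing by animal, 49 genes were higher and 57 lower in CM at an unadjusted p under 5%; calls were 17 higher and 0 lower in WT, 1 higher in CM, and 44 higher and 1 lower in the average response. No gene passed in the difference in that fit either. With DESeq2, calls were 1 higher and 3 lower in the difference (102 higher at an unadjusted p under 5%), 377 and 207 in WT, 74 and 22 in CM, and 455 and 393 in the average. With at least 5 CPM in 3 libraries, 64 and 153 genes had an unadjusted p under 5%, and 11 were called lower in WT. With no filter, 40 were called lower in WT and 2 higher in CM. With a series term, 5 and 1 were called in WT and 81 and 13 in the average.

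Among list medians, the 5 CPM filter gave a difference of 0.096 for lymphoid and -0.32 for B cell genes, WT responses of -0.098 (mitosis), -0.026 (lymphoid) and -0.38 (T and NK), and a CM response of 0.33 (neutrophil). With no filter the CM response was 0.17 for p53 feedback and 0.39 for B cell genes. The series term gave -0.10 for mitosis in WT, and limma-voom a difference of 0.93 for eosinophil genes. Means in place of medians gave differences of -0.37 (all p53), -0.29 (feedback), -0.28 (repair), -0.60 (surface), 1.19 (eosinophil), 0.87 (lymphoid), 0.52 (B cell) and 0.76 (T and NK).

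Leaving out each animal in turn, genes at an unadjusted p under 5% ran from 108 to 402 (higher) and 115 to 397 (lower). Calls ran from 0 to 356 and 0 to 160 in WT, 0 to 2 and 0 to 1 in CM, and 4 to 330 and 0 to 160 in the average. Differences of list medians ran from -0.19 to -0.074 (repair), -0.61 to -0.24 (surface), -0.036 to 0.0026 (mitosis), 0.82 to 1.87 (eosinophil), 0.14 to 0.89 (lymphoid), 0.020 to 0.33 (B cell) and 0.056 to 0.42 (T and NK). WT medians ran from 0.38 to 0.50 (all p53), 0.15 to 0.20 (repair), -0.10 to -0.073 (recombination), -0.12 to -0.10 (mitosis), -0.33 to -0.090 (lymphoid) and -0.071 to 0.25 (B cell). CM medians ran from 0.14 to 0.25 (feedback), 0.99 to 2.08 (eosinophil) and 0.10 to 0.36 (B cell).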
